A study of Mus musculus with 24 samples.

Results

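UDP-glucuronosyltransferases, encoded by the Ugt genes, and cytosolic sulfotransferases, encoded by the Sult genes, were described in 24 mouse livers, 3 in each of 8 groups. All genes whose symbol begins with Ugt or Sult and a digit were taken, each through its probe set with the highest mean over the 24 arrays, and probe sets that name several Ugt1a genes were counted as 1 entry. This gave 26 entries, 11 Ugt and 15 Sult, of 20100 named entries in all. The Ugt1a entry names 8 genes, which share their last exons, so it does not tell the Ugt1a isoforms apart. Another 4 entries are shared by several close relatives (Sult2a1/Sult2a2, Sult2a1/Sult2a2/Sult2a4, Ugt2a1/Ugt2a2 and Ugt3a1/Ugt3a2). They were not counted among the 26 and are given as values where they bear on them.

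Both families make lipophilic compounds soluble enough to leave the body. UDP-glucuronosyltransferases sit in the endoplasmic reticulum and move glucuronic acid from UDP-glucuronate onto bilirubin, bile acids, steroids and drugs, while cytosolic sulfotransferases move sulfate from the donor PAPS onto phenols, steroids and bile acids. Hepatocytes carry most of this capacity, and the conjugates leave the cell through ABC transporters. In rodents several of these genes, Sult2a and Sult3a genes among them, are known to differ between male and female liver.

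The groups were as follows. NEMO/JNKΔhepa mice, which lack NEMO, JNK1 and JNK2, and their controls were 52 weeks old and untreated. JNKΔhepa mice, which lack JNK1 and JNK2, and controls had received the liver carcinogen diethylnitrosamine (DEN) and were studied at 40 days. JNKΔhepa mice and controls had a bile duct ligation (BDL) and were studied at 28 days. NEMO/JNK1Δhepa mice were set against NEMOΔhepa mice at 8 weeks, both untreated. NEMO is the scaffold of the IκB kinase complex, and JNK1 and JNK2 are stress-activated kinases. NEMO and JNK1 are deleted by Cre under the albumin promoter, that is in hepatocytes, whereas the labels' protocols describe the JNK2 allele as a constitutive null on C57BL/6. The protocols name NEMOΔhepa and NEMOf/f mice as controls of the triple knockout, and the labels of single livers say only control. Neither the age of the treated mice nor the sex of any mouse is given in the labels. Mapk9, which encodes JNK2, stood at 7.99 to 8.53 (log2) in the 6 livers of 8 weeks and at 2.82 to 3.51 in the other 18 livers, controls included, so that the livers labelled control at 52 weeks, after DEN and after BDL had JNK2 signal as low as the JNKΔhepa livers. Mapk8, which encodes JNK1, was lower in the NEMO/JNKΔhepa livers than in their controls (log2 difference -0.87, SE 0.13, limma adjusted p = 0.0026), as was Ikbkg, which encodes NEMO (-0.85, SE 0.15, adjusted p = 0.00436). Mapk8 differed by -0.64 after DEN (limma adjusted p = 0.981; -0.58 without the liver with Xist signal described next), -1.02 after BDL (0.029) and -0.61 at 8 weeks (0.592), each without overlap of the groups.

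One liver went against its group. The third JNKΔhepa liver after DEN had Xist, a transcript of the inactive X chromosome, at 10.4 (log2), against 2.16 to 3.87 in the other 23 livers. Its Y-linked transcripts were low, with Eif2s3y at 2.80 against 6.61 to 7.96 in the other 23. It was kept, and the differences that use it are also given without it. The mouse identifiers fall into number series. Control livers 1 and 2 after BDL belong to one series and control liver 3 shares its series with the JNKΔhepa livers, while at 8 weeks the genotypes lie in separate series, so genotype and series cannot be told apart there. Over all 8 groups, 0 of 8 hepatocyte markers, such as Alb and Ttr, fell to the level of unexpressed genes.

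That level was set as the 95th percentile of the group means of 1180 olfactory and vomeronasal receptor probe sets, and lay at 3.43 to 3.69 (log2) depending on the group. Of the 26 entries, 16 were above it in all 8 groups, 6 in some groups and 4 in none. Those 4 were Sult1c1, Sult2a6, Sult6b1 and Sult6b2, with group means between 1.96 and 2.70, and no change is read from them. The shared Ugt2a1/Ugt2a2 entry, whose genes are known from olfactory epithelium, was also under the level in all groups. Group means of a single entry spread widely. The median range of the 8 group means was 1.10 on the log2 scale over the 26 entries and 0.47 over all 20100 entries. The range was over 2 in 9 of the 26 entries (34.6%), against 3.14% of all entries, and without the liver with Xist signal in 8 (30.8%), against 3.23%. The share of the variance that lay between groups was similar, with a median of 47.9% for the 26 entries and 46.8% for all entries.

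The 52-week comparison sets the triple knockout against controls whose Mapk9 signal was as low, so that no contrast in JNK2 signal was seen between them. Here 9 of the 26 entries were lower and 3 were higher in NEMO/JNKΔhepa livers than in controls (limma, adjusted p under 0.05), and 14 did not pass. Of all 20100 entries, 7.79% were lower and 13.5% higher. The fall lay mostly in the Ugt family, where 7 of 11 entries were lower, 1 was higher and the median log2 difference was -0.82. Among the 15 Sult entries, 2 were lower, 2 were higher and the median was -0.16. The median over all entries was -0.05. With each array centred on its own median over the 20100 entries, the split became 18 lower and 2 higher for the 26 entries. For all entries it became 9097 lower and 1720 higher, against 1565 and 2708 as deposited. That centring moved the median of all entries to -0.36. In bulk tissue fewer cells of a type and less RNA per cell cannot be told apart.

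**Figure D1:**
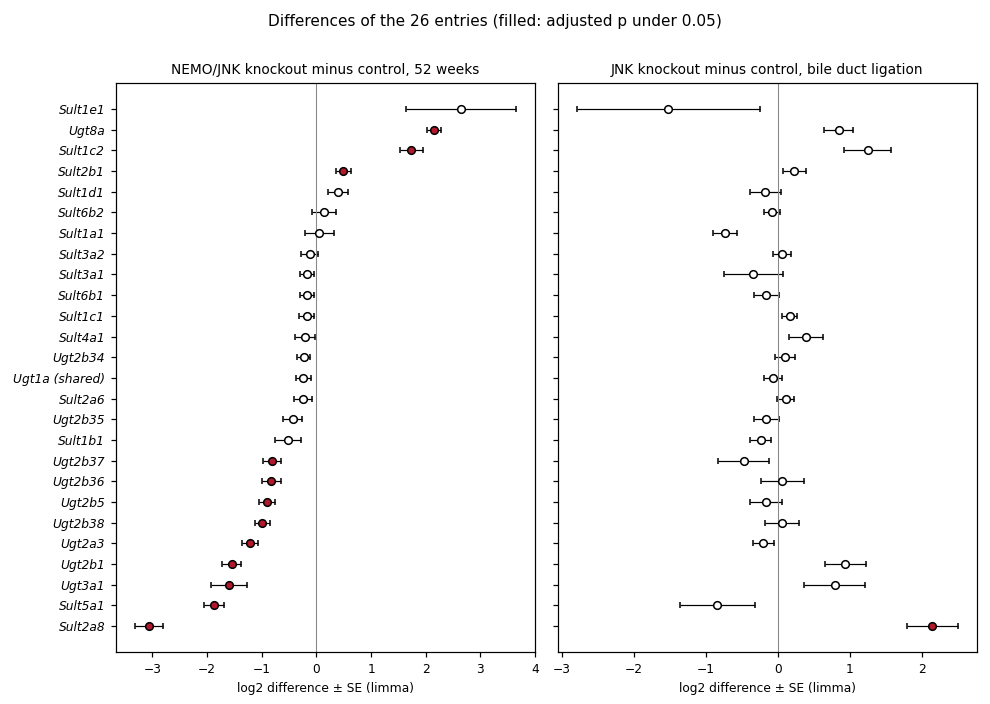
Log2 difference ± SE of the 26 entries (limma), left for NEMO/JNKΔhepa minus control livers at 52 weeks and right for JNKΔhepa minus control livers after bile duct ligation, 3 livers in each group, filled where the adjusted p was under 0.05. On the left 9 filled points lie below 0 and 3 above, and on the right Sult2a8 alone is filled, at 2.14.

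The Ugt2 genes form a cluster on chromosome 5 and encode the glucuronosyltransferases of steroids and bile acids. Ugt2b1 had the largest fall among them, with log2 levels of 9.12, 9.20 and 9.72 in NEMO/JNKΔhepa livers, against 10.75, 10.90 and 11.05 in controls. The groups did not overlap, and the difference was -1.55 (SE 0.18, 2.93-fold lower, limma adjusted p = 0.000605). Ugt2a3 had 8.94, 9.23 and 9.23 in NEMO/JNKΔhepa livers and 10.15, 10.35 and 10.56 in controls, a difference of -1.22 (SE 0.15, adjusted p = 0.00085 in limma). Every NEMO/JNKΔhepa liver was again below every control.

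Ugt2b38 was the most even of these genes in the knockout, at 7.11, 7.08 and 7.12 in NEMO/JNKΔhepa livers against 7.83, 8.15 and 8.30 in controls (log2 difference -0.99, SE 0.14, limma adjusted p = 0.00173). Ugt2b5 stood at 9.19, 9.05 and 9.44 in NEMO/JNKΔhepa livers, against 10.05, 10.05 and 10.30 in controls (log2 difference -0.91, SE 0.14, limma adjusted p = 0.00279). The drops of Ugt2b36 and Ugt2b37 were close to these. Ugt2b36 averaged 9.76 ± 0.34 in NEMO/JNKΔhepa livers and 10.59 ± 0.09 in controls (SD, n = 3 each), and Ugt2b37 averaged 3.67 ± 0.23 against 4.48 ± 0.22, the knockout mean of Ugt2b37 being near the level of unexpressed genes. Their log2 differences were -0.82 (SE 0.17, limma adjusted p = 0.0105) and -0.81 (SE 0.16, limma adjusted p = 0.00842).

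Ugt2b34 and Ugt2b35 did not pass the test. Ugt2b34 was at 10.93, 11.11 and 11.03 in NEMO/JNKΔhepa livers, against 11.34, 11.29 and 11.13 in controls, without overlap (log2 difference -0.23, limma adjusted p = 0.203). Ugt2b35 differed by -0.44 (SE 0.17, adjusted p = 0.103 in limma) and its groups overlapped. When all 24 arrays shared 1 estimate of the spread, Ugt2b1 (limma adjusted p = 0.0633), Ugt2b36 (0.0867) and Ugt2b37 (0.0767) were no longer called. Whether the array probes of near-identical Ugt2b genes bind one another's RNA was not tested.

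The 6 Ugt2 genes that fell lie beside the 2 that were not called. In the 250 bases before the RefSeq start (GRCm38.p6), all 7 Ugt2b promoters hold the letters GTTA and TAAC set 5 bases apart, a form of the site bound by HNF1 proteins, which are known to drive liver genes. This palindrome was searched on both strands and was chosen after the promoter sequences had been read. It occurs in 8 of 34 promoters of the members (23.5%), found for 31 of 33 member symbols, and in 101 of 32851 mouse promoters of the same length (0.307%). The eighth is Ugt3a1. The stretches are shown because they are the feature these promoters share. Each runs 5′ to 3′ along the gene, with the match in capitals and 25 bases on either side.
Ugt2b1: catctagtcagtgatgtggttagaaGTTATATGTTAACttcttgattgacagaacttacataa
Ugt2b5: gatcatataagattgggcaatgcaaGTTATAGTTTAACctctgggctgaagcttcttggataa
Ugt2b36: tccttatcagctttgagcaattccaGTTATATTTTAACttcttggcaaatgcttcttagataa
Ugt2b37: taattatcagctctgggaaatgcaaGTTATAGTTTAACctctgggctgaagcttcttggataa
Ugt2b38: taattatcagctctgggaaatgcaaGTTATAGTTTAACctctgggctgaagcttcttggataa
Ugt2b34: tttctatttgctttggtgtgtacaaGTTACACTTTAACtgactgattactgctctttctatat
Ugt2b35: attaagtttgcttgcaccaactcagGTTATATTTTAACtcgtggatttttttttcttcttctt
Ugt3a1: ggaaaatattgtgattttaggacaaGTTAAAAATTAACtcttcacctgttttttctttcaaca

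The stretch of Ugt2b1 lies at chr5:86926555-86926617 on the minus strand, that of Ugt2b5 at chr5:87140364-87140426 (minus) and that of Ugt2b36 at chr5:87092582-87092644 (minus). Those of Ugt2b37 and Ugt2b38 lie at chr5:87254829-87254891 and chr5:87424230-87424292, both on the minus strand. Ugt2b34 has its stretch at chr5:86906973-86907035 (minus), Ugt2b35 at chr5:87000765-87000827 (plus) and Ugt3a1 at chr15:9279674-9279736 (plus). The match begins at position -89 to -61 from the start in the 7 Ugt2b genes and at -130 in Ugt3a1. The promoters of Ugt2b37 and Ugt2b38 were identical at 94.9% of aligned bases and each was about 88% identical to that of Ugt2b5 (88.1% and 88.3%), so that the matches are not independent of one another. The other pairs of Ugt2 promoters were identical at 59.5% to 75.5% of aligned bases. Unrelated promoters were not aligned, so a wider resemblance was not tested. The motif did not separate the genes that fell from the others. Ugt2b34 and Ugt2b35, which were not called, hold it, and Ugt2a3, which fell, does not within this window.

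Among the other motifs searched on both strands, another HNF1 form, GTTAAT and ATT set 1 base apart, was found in 5 of 34 promoters (14.7%, against 0.371% of all), those of Ugt1a1, Ugt1a9, Ugt1a10, Sult1d1 and Sult2a6. The letters TGANTCA, a loose form of the AP-1 site to which Jun proteins bind, occurred in 7 of 34 (20.6%, against 6.75% of all). The middle base was C or G, as in the AP-1 consensus, in Sult1c1, Sult2b1 and Ugt2b37 only. It was A in Ugt2b1 and Ugt2b38 and T in Ugt1a6a and Ugt2b35. Of the 7, Ugt2b1, Ugt2b37 and Ugt2b38 were lower and Sult2b1 was higher at 52 weeks. Ugt1a6a (through the Ugt1a entry), Ugt2b35 and Sult1c1 were not called. The STAT5 site TTCNNNGAA occurred in 2 (5.88%, against 7.02%) and the xenobiotic response core GCGTG in 5 (14.7%, against 28.2%). A match is a description of the letters in this window and not of a bound factor.

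Outside the Ugt2 cluster, the Ugt1a entry covers the enzymes that include Ugt1a1, the glucuronosyltransferase of bilirubin. It had log2 levels of 9.04, 9.32 and 9.20 in NEMO/JNKΔhepa livers and 9.27, 9.45 and 9.55 in controls (log2 difference -0.24, limma adjusted p = 0.23), so it was not called. Ugt3a1, whose human counterpart uses UDP-N-acetylglucosamine in place of UDP-glucuronate, fell to 8.64, 7.61 and 8.71 in NEMO/JNKΔhepa livers, against 9.48, 10.48 and 9.80 in controls. The log2 difference was -1.60 (SE 0.33, 3.03-fold lower, limma adjusted p = 0.01). The shared Ugt3a1/Ugt3a2 entry differed by -0.89 (SE 0.22, adjusted p = 0.0214 in limma) and was no longer called without control liver 2, without control liver 3 or with all 24 arrays in 1 fit.

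Ugt8a was the exception in direction. It encodes the galactosyltransferase that makes galactosylceramide, the myelin lipid, and so uses another sugar donor. Its log2 level was 5.94, 5.69 and 5.97 in NEMO/JNKΔhepa livers, against 3.61, 3.80 and 3.71 in controls, where it stood near the level of unexpressed genes. The difference was 2.16 (SE 0.13, 4.46-fold, limma adjusted p = 3.86e-05), and no liver of the other 7 groups reached the lowest knockout value, the highest being 4.81. Markers of biliary epithelium moved with it, 9 of 9 being higher, and their mean log2 level per liver was 7.71 to 8.19 in NEMO/JNKΔhepa livers against 4.50 to 5.05 in controls. Macrophage markers were higher for 5 of 8 genes and T cell markers for 3 of 3, while 2 of 8 hepatocyte markers were lower, with a median log2 difference of 0.02. The part of these cells in the levels of Ugt8a and of the genes that fell was not tested.

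**Figure D2:**
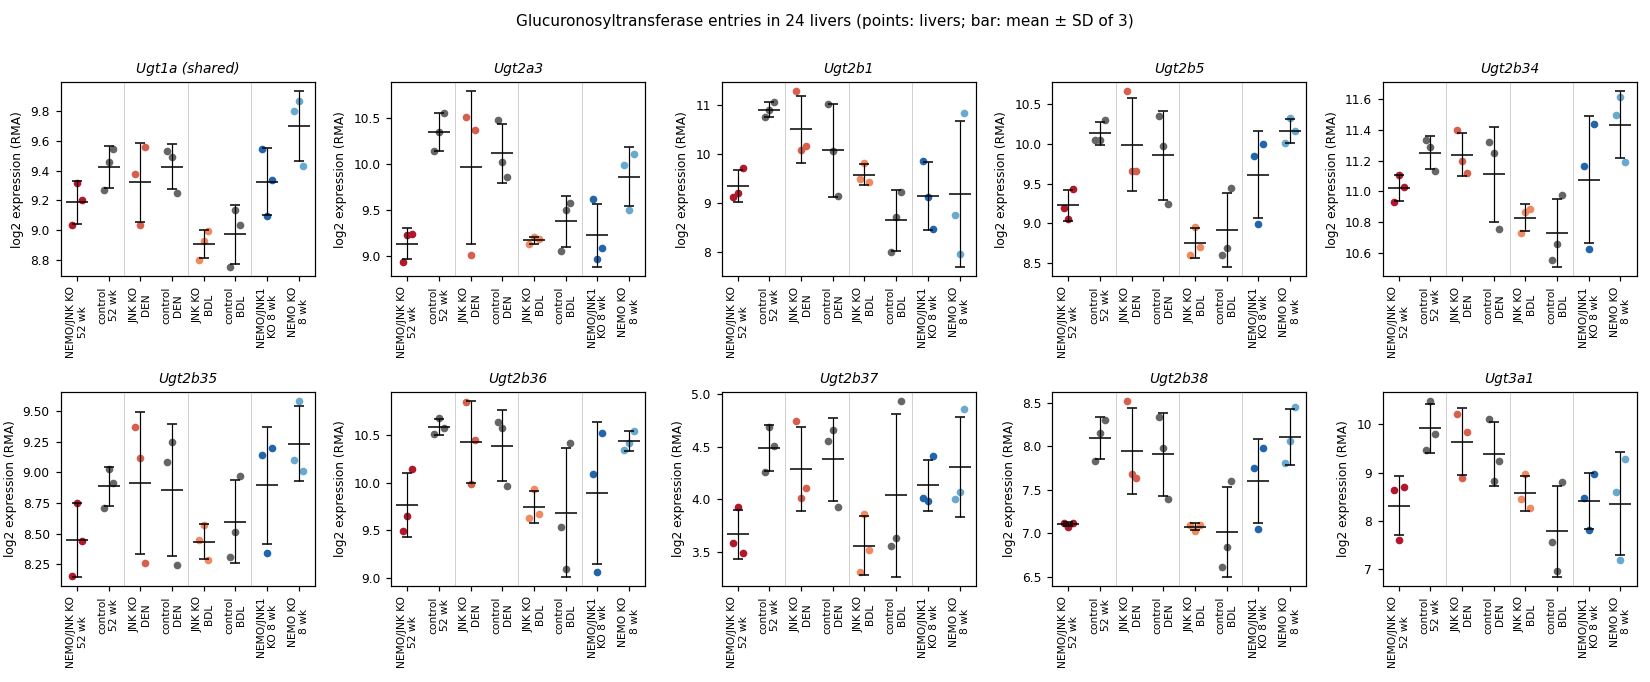
Log2 expression (RMA) of 10 Ugt entries in each of 24 livers, by group, with the knockout group left of its comparison group; points are livers and bars the mean ± SD of 3. In the first pair of each panel, NEMO/JNKΔhepa livers lie below controls without overlap for Ugt2a3, Ugt2b1, Ugt2b5, Ugt2b36, Ugt2b37, Ugt2b38 and Ugt3a1. The same holds for Ugt2b34, which was not called. The share of all entries without overlap was not counted.

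Of the sulfotransferases, Sult2a8 had the largest fall of the 26 entries at 52 weeks. In mice it is known as a liver bile acid sulfotransferase. Its log2 level was 8.17, 7.51 and 8.56 in NEMO/JNKΔhepa livers, against 10.95, 11.05 and 11.44 in controls, with no overlap. The difference of -3.07 (SE 0.25) corresponds to 8.39-fold lower expression (limma adjusted p = 0.000148) and was called in 13 of 13 alternatives. Sult5a1 had 3.28, 3.77 and 4.0 in NEMO/JNKΔhepa livers, near the level of unexpressed genes, against 5.40, 5.56 and 5.69 in controls (log2 difference -1.87, SE 0.19, limma adjusted p = 0.000335). It too fell in every knockout liver.

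Sult1c2 rose. It stood at 8.23, 7.72 and 8.58 in NEMO/JNKΔhepa livers and at 6.54, 6.55 and 6.23 in controls, a log2 difference of 1.73 (SE 0.21, 3.33-fold, limma adjusted p = 0.000867). Sult2b1, which sulfates cholesterol and other sterols, was at 3.85, 3.57 and 3.94 in NEMO/JNKΔhepa livers against 3.42, 3.21 and 3.28 in controls, close to or under the level of unexpressed genes. Its difference was 0.49 (SE 0.14, adjusted p = 0.0336 in limma), and it was not called without knockout liver 1 (adjusted p = 0.103), knockout liver 3 (0.124), control liver 2 (0.095) or control liver 3 (0.0873). With array centring the difference was 0.18 (adjusted p = 0.285).

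Sult1e1, the estrogen sulfotransferase, varied between the knockout livers, at 3.82, 8.85 and 5.97 in NEMO/JNKΔhepa livers against 3.05, 3.88 and 3.76 in controls. The log2 difference of 2.65 had an SE of 1.01 and did not pass (limma adjusted p = 0.0976), and 1 knockout liver lay within the range of the controls. The control mean of 3.57 lay under the level of unexpressed genes in that group (3.69), so that the size of the difference is not measured. It ranged from 1.33 without knockout liver 2 (adjusted p = 0.141) to 3.84 without knockout liver 1 (0.0102), which is the low knockout liver, and 1 of the 6 omissions of a liver passed. The shared Sult2a1/Sult2a2 entry, the hydroxysteroid sulfotransferases known as female-biased in mouse liver, showed the same high liver, with 4.44, 7.81 and 4.65 in NEMO/JNKΔhepa livers and 3.21, 3.80 and 2.52 in controls (log2 difference 2.46, SE 0.79, limma adjusted p = 0.0573). Its control mean, 3.18, was also under that level. The phenol sulfotransferase Sult1a1 (0.05), the thyroid hormone sulfotransferase Sult1b1 (-0.52, adjusted p = 0.16) and the catecholamine sulfotransferase Sult1d1 (0.40) did not pass.

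**Figure D3:**
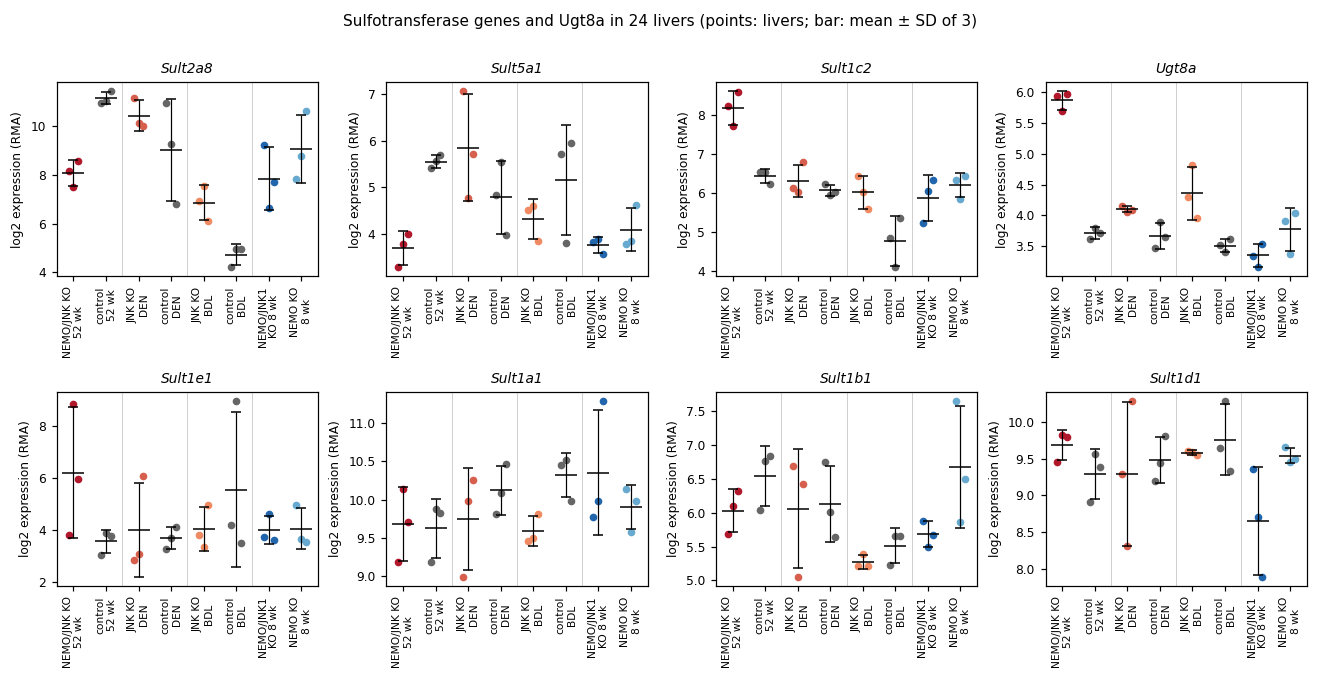
Log2 expression (RMA) of 7 Sult genes and Ugt8a in each of 24 livers, by group, with the knockout group left of its comparison group; points are livers and bars the mean ± SD of 3. Sult2a8 runs from 4.22 in a control liver after bile duct ligation to 11.44 in a control liver at 52 weeks, and the wide bars of Sult1e1 come from single livers at 8.85 and 8.98.

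Genes known as male-biased in mouse liver moved in the same comparison, and their values stand beside those of Sult2a8. Of 10 such genes 9 were lower in NEMO/JNKΔhepa livers, among them Mup21 (log2 difference -4.54) and Slco1a1 (-4.71), and their mean log2 level per liver was 6.66 to 6.89 in NEMO/JNKΔhepa livers against 9.10 to 10.36 in controls. Of 8 female-biased genes 2 were higher, Fmo2 (2.49) and Cyp2b10 (1.85), and 0 were lower. The other 6 did not pass, and the median log2 difference of the 8 was -0.12, so the list did not rise as a whole. Xist and the Y-linked genes did not pass in this comparison (0 of 4). The part of the fall of male-biased genes in that of Sult2a8 was not tested.

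The genes that feed and drain conjugation changed in part. In the supply and use of UDP-glucuronate 2 of 9 genes rose and 2 fell. Pgm2, a phosphoglucomutase, rose by 1.23 (limma adjusted p = 0.000461) and Gusb, the lysosomal β-glucuronidase, by 0.50 (0.0348), while Pgm1 (-0.43) and Rgn (-0.70), which encodes a gluconolactonase of the route from glucuronate to ascorbate, were lower. Ugdh, which makes UDP-glucuronate, was not called (-0.04, adjusted p = 0.893). Among 7 genes of PAPS supply, only Bpnt1, a phosphatase of its by-product, was called (-0.45, adjusted p = 0.0252), and the PAPS synthases Papss1 (-0.13) and Papss2 (-0.36) were not.

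Of 7 genes that make sulfate from cysteine 4 fell, Ethe1 (-1.89), Suox (-0.99), Mpst (-0.94) and Tst (-0.60), and Got1 (0.81) rose, with the members' median at -0.60. Suox encodes sulfite oxidase, the last step to sulfate, and Ethe1 a mitochondrial sulfur dioxygenase. Of 3 sulfatase genes Arsb was lower (-0.50). Among 5 efflux transporters of conjugates, Abcc4 rose (1.51, limma adjusted p = 0.0178), Abcc6 (-1.49) and Abcg2 (-0.58) fell, and Abcc2, the main canalicular transporter of glucuronides, differed by 0.01 (adjusted p = 0.959). Of 8 transcriptional regulators, Ahr rose (0.48, adjusted p = 0.0451), and Nr1h4, the bile acid receptor FXR (-0.93), and Ppara (-0.54) fell.

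After DEN, 0 of 26 entries were called between JNKΔhepa and control livers in limma, and 0% of all 20100 entries. At an unadjusted p under 0.05 there was 1 entry. This was Ugt8a, at 4.15, 4.06 and 4.09 in JNKΔhepa livers and 3.46, 3.88 and 3.64 in controls (log2 difference 0.44, SE 0.14, limma adjusted p = 0.981). Without the third JNKΔhepa liver the difference was 0.44 as well (adjusted p = 0.997), and again 0 entries were called. Sult4a1 (-0.57), a brain sulfotransferase, and Sult5a1 (1.07) followed by size of p, with overlapping groups, and differed by -0.61 and 1.14 without that liver. The JNKΔhepa mean of Sult4a1, 3.49, was at the level of unexpressed genes (3.48).

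The Sult3a and shared Sult2a values after DEN were set by single livers. Sult3a2 was at 2.87, 2.28 and 8.10 in JNKΔhepa livers and 1.92, 2.55 and 2.46 in controls, and its log2 difference was 2.11 with and 0.27 without the third JNKΔhepa liver, the one with Xist signal. Sult3a1, an amine sulfotransferase, was at 2.51, 1.80 and 9.02 in JNKΔhepa livers, against 2.11, 4.10 and 5.36 in controls. Its difference was 0.58 with and -1.71 without that liver. The shared Sult2a1/Sult2a2 entry was at 3.21, 3.14 and 9.01 in JNKΔhepa livers, against 2.95, 3.11 and 3.02 in controls, with differences of 2.09 and 0.15. For Sult3a2 and the shared entry the controls and the other 2 JNKΔhepa livers were under the level of unexpressed genes (3.57 in controls and 3.48 in JNKΔhepa livers), so these differences are against signal that was not above background. In the other 23 livers Sult3a1 did not pass 5.36, Sult3a2 2.87 and the shared Sult2a1/Sult2a2 entry 7.81.

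**Figure D4:**
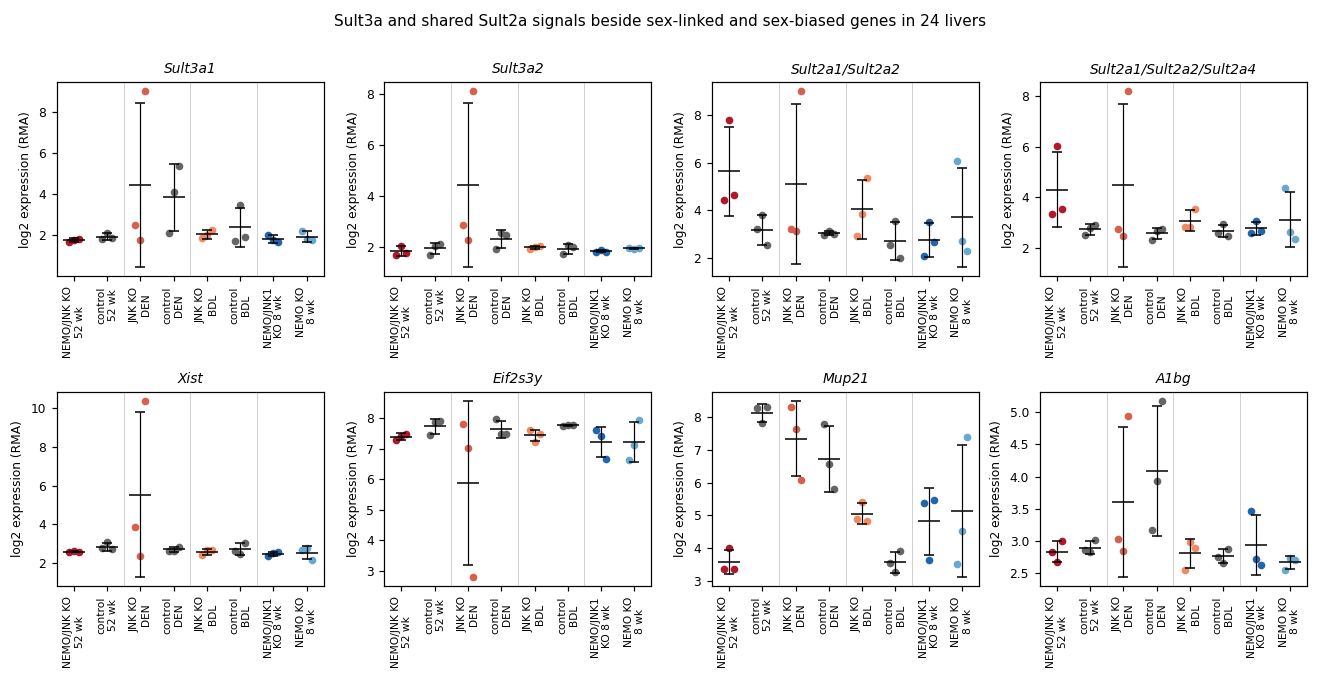
Log2 expression (RMA) of Sult3a1, Sult3a2 and 2 shared Sult2a entries (top) and of Xist, Eif2s3y, Mup21 and A1bg (bottom) in each of 24 livers, by group, with the knockout group left of its comparison group; points are livers and bars the mean ± SD of 3. The third JNKΔhepa liver after DEN is the highest of 24 in Sult3a1 (9.02), Sult3a2 (8.10), both Sult2a entries (9.01 and 8.19) and Xist (10.4), and the lowest in Eif2s3y (2.80).

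Among the DEN controls, liver 3 had the highest Sult3a1 (5.36) and the lowest Sult2a8 (6.82, against 10.97 and 9.25 in control livers 1 and 2). It had Y-linked signal, with Eif2s3y between 6.61 and 7.96 as in the other livers. Over the 10 male-biased genes its mean log2 level was 7.10, against 9.43 and 8.17 in control livers 1 and 2, and over the 8 female-biased genes it was 5.62, against 5.13 and 5.05. Not all female-biased genes were high in it. It was the lowest of these controls in Cyp2b10 (3.87, against 5.88 and 4.01), Cyp2b9 (3.05, against 3.23 and 3.13) and Cyp3a44 (6.21, against 6.35 and 6.24). In A1bg, Acot3, Cux2, Fmo2 and Cyp2b13 it was the highest of them. Cyp2b9 and Cyp2b13 were under the level of unexpressed genes in these controls.

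After bile duct ligation, which blocks the outflow of bile conjugates, 1 of 26 entries was higher and 0 were lower in JNKΔhepa livers than in controls (limma, adjusted p under 0.05). Of all 20100 entries 0.826% were higher and 0.537% lower. At an unadjusted p under 0.05 there were 5 members, and the share of all entries at that threshold was not taken. The gene was Sult2a8, at 6.93, 7.53 and 6.11 in JNKΔhepa livers, against 4.22, 4.97 and 4.95 in controls. The groups did not overlap and the log2 difference was 2.14 (SE 0.35, 4.42-fold, limma adjusted p = 0.0324). The direction was thus opposite to that at 52 weeks, where other alleles, ages and treatments were compared.

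That call was not stable. It was lost without JNKΔhepa liver 1 (limma adjusted p = 0.148), without JNKΔhepa liver 2 (0.111), without control liver 1 (0.106), with all 24 arrays in 1 fit (0.334) and with the animal-number series as a block (0.191). The difference ranged from 1.81 to 2.52 over the alternatives. Against control liver 3 alone, the control of the same animal series, it was 1.90. Of the 10 male-biased genes, 2 were higher in the JNKΔhepa livers, Mup21 (1.47, limma adjusted p = 0.0183) and Mup3 (2.68, adjusted p = 0.0376), and the part of that pattern in the level of Sult2a8 was not tested.

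The next entries by p did not pass. Their groups did not overlap, but they were picked by small p and the share of all entries without overlap was not counted. Sult1a1 was at 9.46, 9.49 and 9.81 in JNKΔhepa livers and 10.46, 10.52 and 9.98 in controls (log2 difference -0.73, SE 0.17, limma adjusted p = 0.0979). Ugt8a was at 4.29, 4.81 and 3.96 in JNKΔhepa livers and 3.51, 3.41 and 3.61 in controls (log2 difference 0.85, SE 0.20, limma adjusted p = 0.104), the controls being near the level of unexpressed genes. Sult1c2 was at 6.42, 6.03 and 5.59 in JNKΔhepa livers and 4.84, 4.11 and 5.37 in controls (log2 difference 1.24, SE 0.33, limma adjusted p = 0.126). Ugt2b1 was at 9.49, 9.81 and 9.42 in JNKΔhepa livers and 7.99, 8.70 and 9.23 in controls (log2 difference 0.93, SE 0.28, limma adjusted p = 0.181). Control liver 3 was the nearest to the knockouts in all 4 genes. Against it alone the differences were -0.40 for Sult1a1, 0.75 for Ugt8a, 0.64 for Sult1c2 and 0.35 for Ugt2b1. Without control liver 3 the number of members called became 4 higher, Sult2a8, Sult1c2 (1.54, adjusted p = 0.0419), Ugt2b1 (1.23, 0.0394) and Ugt3a1 (1.30, 0.0463), and 1 lower, Sult1a1 (-0.90, 0.0221), with 1.65% of all entries higher and 1.27% lower. Without control liver 2, Sult5a1 was called lower (-1.52, adjusted p = 0.03), with 0.886% of all entries lower. Biliary epithelium markers were called for 0 of 9 genes, with a mean log2 level per liver of 6.32 to 6.90 in JNKΔhepa livers against 5.52 to 6.43 in controls. Among the 8 stellate cell and fibroblast markers Acta2 was higher (1.35, limma adjusted p = 0.0273) and Lrat lower (-1.49, 0.0107), and of 5 sinusoidal endothelium markers Lyve1 was lower (-1.69, 0.0204). Macrophage, T cell, B cell and hepatocyte markers had 0 calls. The part of these cells in the members' levels was not tested. No gene of the 6 conjugation pathway lists was called.

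At 8 weeks 0 of 26 entries were called between NEMO/JNK1Δhepa and NEMOΔhepa livers in limma, with 0% of all entries. Unadjusted p-values under 0.05 were found for 2 entries. Ugt2a3 was at 9.61, 8.97 and 9.08 in NEMO/JNK1Δhepa livers and 9.99, 9.50 and 10.11 in NEMOΔhepa livers (log2 difference -0.64, SE 0.23, limma adjusted p = 0.605). Sult1d1 was at 9.35, 8.71 and 7.90 in NEMO/JNK1Δhepa livers, against 9.66, 9.46 and 9.50 in NEMOΔhepa livers (log2 difference -0.89, SE 0.34, limma adjusted p = 0.625). The Sult1d1 groups did not overlap and those of Ugt2a3 did. Sult1b1 (-0.99), the Ugt1a entry (-0.37) and Ugt8a (-0.43) came next. In NEMOΔhepa livers Ugt2b1 was at 8.75, 7.95 and 10.84 and Sult2a8 at 7.83, 8.76 and 10.61, so that liver 3 was the highest in both.

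The injuries were also set against each other within a genotype, although they differ in agent and time, which cannot be told apart. Age, which is not given, and animal series may differ between them as well. In JNKΔhepa livers 1 of 26 entries was lower after BDL than after DEN and 0 were higher (limma), against 0.308% and 0.736% of all entries. Sult2a8 was at 6.93, 7.53 and 6.11 after BDL, against 11.18, 10.12 and 10 after DEN, a log2 difference of -3.58 (SE 0.43, 11.9-fold lower, limma adjusted p = 0.0232). Without the liver with Xist signal the difference was -3.79 (adjusted p = 0.0491). The call was lost without each of the BDL livers in turn (adjusted p = 0.133 without liver 1, 0.0846 without liver 2 and 0.102 without liver 3). At an unadjusted p under 0.05 there were 10 members, a count for which the share of all entries was not taken. Ugt2b5 (-1.24, adjusted p = 0.113), Ugt2b38 (-0.87, 0.174), Ugt2b34 (-0.41, 0.191) and Ugt2b37 (-0.72, 0.241) followed without passing. Without the liver with Xist signal these were -1.40, -1.02, -0.47 and -0.81. Without DEN liver 2, 8 members were lower (2.55% of all entries), and without DEN liver 1, 2 were (0.552%).

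In control livers 0 of 26 entries were called between BDL and DEN in limma (0.726% of all entries lower and 1.59% higher). With the animal series as a block, 0.0249% of all entries were lower and 0.0398% higher. At an unadjusted p under 0.05 there were 9, again without a share of all entries. Sult2a8 was at 4.22, 4.97 and 4.95 after BDL, against 10.97, 9.25 and 6.82 after DEN. The groups did not overlap, and the log2 difference was -4.30 (SE 0.90, 19.7-fold lower, limma adjusted p = 0.0567). Without DEN control liver 3 it was -5.40 (adjusted p = 0.0187). Sult1c2 (-1.30, adjusted p = 0.0681), Ugt2a3 (-0.75, 0.109), Ugt3a1 (-1.61, 0.138) and the Ugt1a entry (-0.45, 0.156) did not pass. Among pathway genes Ugp2, which makes UDP-glucose, was lower (-1.12, adjusted p = 0.0373), as were Abcc6 (-1.06, 0.0271) and Ppara (-1.05, 0.0218), and Gusb was higher (0.70, 0.0313). In JNKΔhepa livers Ugp2 (-0.70, adjusted p = 0.041) and Nr1h4 (-0.84, 0.0294) were lower after BDL, and neither was called without the liver with Xist signal (-0.66, adjusted p = 0.118, and -0.78, 0.0826).

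Markers of other cells and sex-biased genes moved in the same comparisons. Stellate cell and fibroblast markers were higher after BDL for 7 of 8 genes in controls (median log2 difference 2.08). In JNKΔhepa livers they were higher for 4 of 8 (2.01), and for 0 of 8 without the liver with Xist signal (1.89). Biliary epithelium markers were higher for 3 of 9 genes in controls (median 1.25) and 0 of 9 in JNKΔhepa livers (0.79). Macrophage markers were higher for 1 of 8 genes in each genotype, and of 5 sinusoidal endothelium markers 1 was lower in controls. Of 10 male-biased genes 3 were lower after BDL in controls, Mup21 (-3.13), Mup3 (-3.28) and Cyp7b1 (-1.95), with a median of -1.53. In JNKΔhepa livers 0 of 10 were called with all livers (median -1.92) and 3 were lower without the liver with Xist signal (median -3.02). Of 8 female-biased genes Acot3 was lower in controls (-2.44). The part of these patterns in the levels of Sult2a8 and the other members was not tested. These comparisons use the same livers as those between genotypes.

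The difference between JNKΔhepa and control livers was itself compared between the injuries by an interaction term over 12 livers. Mapk9 signal was as low in these controls as in the JNKΔhepa livers, so no contrast in JNK2 signal was seen. Of 26 entries 0 were called in limma, against 0.0149% higher and 0.0249% lower of all entries, and 2 had an unadjusted p under 0.05. Sult4a1 had an interaction of 0.96 (SE 0.40, adjusted p = 0.65) and Sult1c2 of 1.00 (SE 0.44, adjusted p = 0.681). Group means of Sult4a1 were only 3.42 to 4.05, near the level of unexpressed genes. For Sult2a8 the difference between JNKΔhepa and control livers was 2.14 after BDL (SE 0.35). After DEN it was 1.42 (SE 0.97, limma adjusted p = 0.981) with overlapping groups. The interaction was 0.73 (SE 1.14, adjusted p = 0.916), so these were not shown to differ. Without the liver with Xist signal 0 entries were called, and the difference of Sult2a8 after DEN was 1.63 (SE 1.16). The interactions were then 0.51 for Sult2a8, 1.00 for Sult4a1 and 1.24 for Sult1c2.

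Across all 8 groups, the mean log2 level of Sult2a8 ran from 4.71 ± 0.43 in controls after BDL, through 6.86 ± 0.71 in JNKΔhepa livers after BDL and 8.08 ± 0.53 in NEMO/JNKΔhepa livers, to 11.15 ± 0.26 in controls at 52 weeks (SD, n = 3 each). Its range of group means, 6.43, was the widest of the 26 entries. Sult1c2 ran from 4.77 ± 0.64 in controls after BDL to 8.18 ± 0.43 in NEMO/JNKΔhepa livers. Ugt2b1 ran from 8.64 ± 0.62 in controls after BDL to 10.90 ± 0.15 in controls at 52 weeks, and Ugt3a1 from 7.78 ± 0.94 to 9.92 ± 0.51 in the same groups. The Ugt1a entry and Ugt2b34 had ranges of 0.79 and 0.70, under the median of the 26 entries (1.10) and above that of all entries (0.47). Ugt1a was lowest in JNKΔhepa livers after BDL (8.91) and highest in NEMOΔhepa livers (9.70). Levels of groups from different experiments are given as a description, since age, treatment and animal series differ between them.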

How the data were processed

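RNA of 24 livers was measured on whole-transcript Affymetrix mouse arrays. The authors deposited log2 levels, which the submitters' processing notes ascribe to RMA (program, chip definition and build not given in the sources used here). RMA normalises arrays to one distribution, so that a global shift is not seen. Of 35556 probe sets, 21219 named 1 gene, 1880 several and 12457 none; 21185 matched RefSeq (GRCm38.p6). Over all probe sets, array medians were 4.52 to 4.66, and arrays of a group correlated at 0.966 to 0.987. The number of arrays limits the precision.

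Each comparison was fitted on its own arrays with limma 3.58.1 in R 4.3.3, two-sided, adjusted by Benjamini-Hochberg over 20100 entries, and called under 0.05. An exact permutation test of 3 against 3 could not pass that threshold. On simulated data a log2 change of 1 was called for 73% of changed entries at 52 weeks, 57% for DEN, 68% for BDL and 45% at 8 weeks. The 200 changed entries were drawn from all entries, whose median pooled SD within groups was 0.20. It was 1.09 for Sult2a8 and 0.76 for Ugt2b1, so these shares do not hold for members as variable as these. The adjustment also depends on how many entries change, and the simulated noise was independent between entries. The real fits called 2708 entries higher and 1565 lower at 52 weeks, and 0 for DEN and at 8 weeks. The shares are thus not the power of these comparisons. Named were called members and, where under 5 were called, those next by p up to 5. Counts at an unadjusted p under 0.05 lack the share of all entries and are not read as a result about the members. The members, lists and comparisons were chosen with earlier results of these data known.

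The alternatives were 1 fit of all arrays, centring, quantile normalisation, a filter on dim entries, averaged probe sets, no shared entries, each replicate left out, the replicate number as a block and the animal series as a block. Same-numbered livers did not deviate together in every pair, so the numbers were not taken to pair animals.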

Additional observations from a re-analysis of the deposited data

How the results depend on the processing

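No member called in a comparison changed direction under its alternatives. At 52 weeks the 9 lower entries became 18 with arrays centred on their medians, 10 with quantile normalisation and 6 with all 24 arrays in 1 fit, and without 1 liver they were 9 to 10. The 3 higher entries were 2 to 4. Ugt8a, Sult2a8, Sult5a1, Sult1c2, Ugt2a3, Ugt2b5, Ugt2b38 and Ugt3a1 were called in 13 of 13 alternatives. After BDL the 1 higher entry became 0 with the replicate block and 0 with a block for the animal series; without 1 liver the number ranged from 0 to 4, the 4 being reached without control liver 3, and lower entries from 0 to 1, the 1 without control liver 2 or without control liver 3. BDL against DEN in controls gave 0 lower entries, 2 with all 24 arrays, and 0 to 2 without 1 liver, the 2 being reached without BDL control liver 3. In JNKΔhepa livers the 1 lower entry became 2 with all 24 arrays, 0 with the replicate block and 0 to 8 without 1 liver. All-entry counts moved too: for BDL, 166 higher entries became 37 without JNKΔhepa liver 1 and 332 without control liver 3, and at 52 weeks quantile normalisation gave 2260 higher and 2565 lower. The cause was not tested.

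In the check of the replicate numbers, same-numbered livers correlated in their deviations from the group means at -0.19 to 0.34, and in no comparison did every liver correlate best with its own number. With the replicate block Sult2a8 had an adjusted p of 0.0626 after BDL and 0.0696 for BDL against DEN in JNKΔhepa livers, and Sult1e1 had 0.0341 at 52 weeks.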

Other observations

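Several sulfotransferases varied more between livers of a group than nearly all other entries. The pooled SD within groups was 1.67 on the log2 scale for the shared Sult2a1/Sult2a2 entry, 1.60 for Sult1e1, 1.56 for Sult3a1 and 1.09 for Sult2a8, against a median of 0.20 over all entries. A larger SD was found for 0.0498% of all entries in the first case, 0.0746% for Sult1e1 and 0.373% for Sult2a8. The Ugt1a entry had an SD of 0.19. The JNKΔhepa liver with Xist signal after DEN was then left out, an omission chosen after seeing the data. The SD was 1.21 for the shared Sult2a1/Sult2a2 entry, 1.52 for Sult1e1, 0.72 for Sult3a1 and 1.12 for Sult2a8. For Sult3a1 a larger SD was then found for 1.92% of all entries, so its spread rested on that liver only in part. The SD of Sult3a2 went from 1.15 to 0.21 with the omission. Sult1e1 was at 8.98 in control liver 2 after BDL, against 4.21 and 3.50 in control livers 1 and 3, and at 8.85 in NEMO/JNKΔhepa liver 2. The shared Sult2a1/Sult2a2 entry was at 6.09 in NEMOΔhepa liver 1, against 2.70 and 2.29 in livers 2 and 3 of that group.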
